A study of Mus musculus with 2 samples.

Results

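The Hox genes of the 4 mouse clusters HoxA, HoxB, HoxC and HoxD were described by the CTCF binding measured among them. The rule takes the 39 Hox genes of the annotation, of which 38 are described and the remaining one is not reported here, and the CTCF peaks inside the clusters and within 200 kb on each side. Of the 43344 peaks of the authors' conservative set on the autosomes and X (mm10), 23 had their summit inside a cluster and 57 in a flank. CTCF was immunoprecipitated from cultured E14TG2a.4 cells, which are male mouse embryonic stem cells of strain 129/Ola, labelled embryonic at 3.5 day. The series held 2 libraries, biological replicates 1 and 2 of 1 group from the same donor, with no treatment, genotype change or second condition in the labels. All values therefore describe 1 cell line in 1 state. Read depth is unknown, because the peak lists carry no counts of reads, and no test between groups could be made.

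Hox genes encode homeodomain transcription factors that give position along the head-to-tail axis of the embryo. Within a cluster all members are transcribed in the same direction, genes at the 3′ end act earlier and further forward than genes at the 5′ end, and genes of one number in different clusters are paralogs that descend from 1 ancestral gene. CTCF is a zinc-finger protein that binds a long sequence motif, stops cohesin during loop extrusion and marks borders between chromatin domains, and Hox clusters are a textbook case of such borders.

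In HoxA, HoxB and HoxD the CTCF peaks lay in the 5′ and middle portions, and in HoxC from Hoxc10 to Hoxc5, since the segments of Hoxc12 and Hoxc11 held none. The last segments at the 3′ end held no conservative peak in any of the 4 clusters. To compare paralogs, each cluster was divided into segments, each running from the 3′ end of 1 Hox gene to the 3′ end of the next and so holding the spacer and the body of that next gene, by which it is named. Of 34 segments, 16 held at least 1 conservative peak. The 7 segments of paralogous groups 1 to 3, which pattern the hindbrain and neck, held 0 peaks over 109.9 kb, although the strongest entries of replicate 1 alone placed a peak in those of Hoxb2 and Hoxb3. This count follows the 3′ ends, and peaks of the Hoxa5, Hoxb4 and Hoxd4 segments lie inside the long annotations of Hoxa3, Hoxb3 and Hoxd3. The 19 segments of groups 4 to 9 held 17 peaks, or 6.40 per 100 kb, and the 8 segments of groups 10 to 13 held 6 peaks, or 6.37 per 100 kb.

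**Figure D1:**
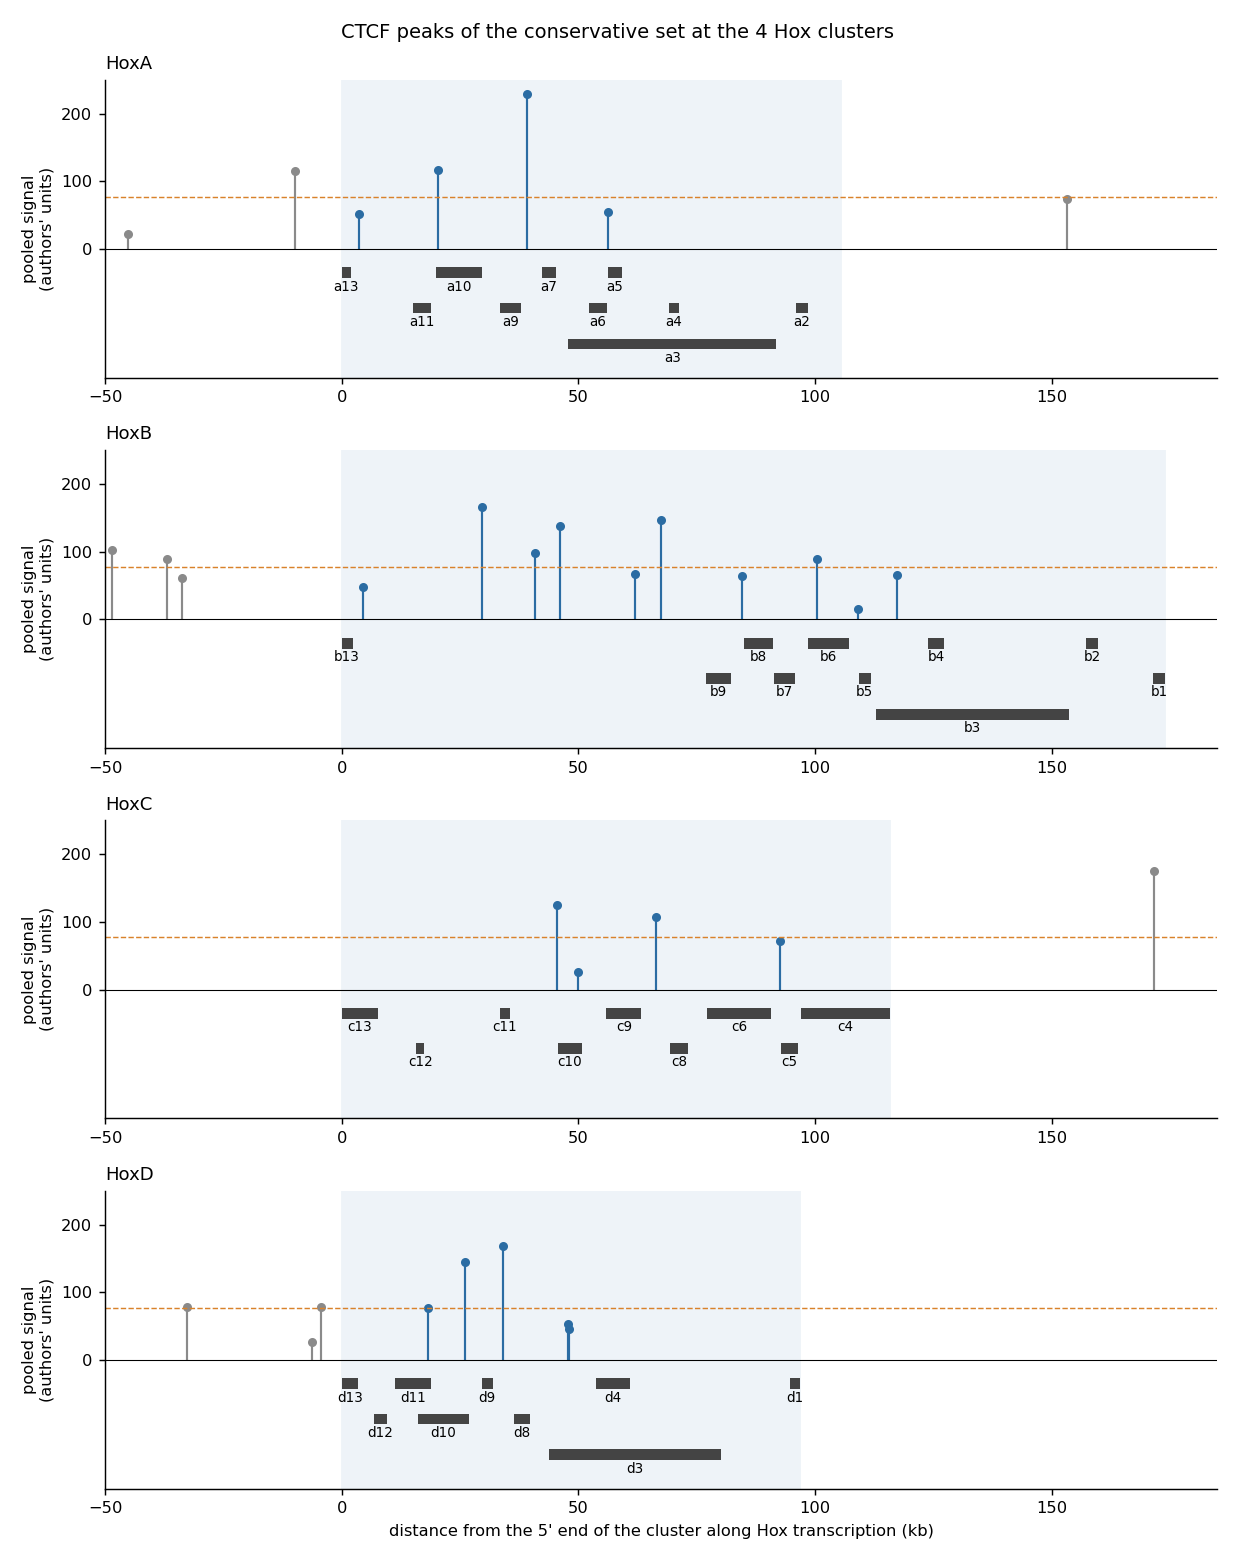
Pooled CTCF signal (vertical axis, the authors' units) at each conservative peak against the distance from the 5′ end of the cluster along Hox transcription (kb), with 1 panel per cluster. Blue stems are the 23 peaks inside a cluster (shaded), grey stems are flank peaks, dark bars are the described Hox genes, and the dashed line is the median of all conservative peaks (77.2), with no blue stem over the Hox genes of groups 1 and 2.

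In 3 cases the corresponding segments of different clusters all held a peak. The gene just 3′ of the group 9 paralog had a peak in its segment in all 4 clusters, where group 9 is the first of the posterior groups. That gene is Hoxa7 in HoxA and the group 8 gene elsewhere, so group 8 had a peak in all 3 of its segments. The 4 summits lay 1263 bp past the 3′ end of Hoxa9, 2326 bp past Hoxb9, 3154 bp past Hoxc9 and 2167 bp past Hoxd9. Group 5, whose Hoxa5 is needed for lung and respiratory development, had a peak in all 3 of its segments, with summits 112 bp upstream of the start of Hoxa5, 198 bp upstream of Hoxb5 and 338 bp upstream of Hoxc5. Group 10, which specifies lumbar identity, also had peaks in 3 of 3 segments (Hoxa10, Hoxc10 and Hoxd10), but at unlike positions. The Hoxa10 summit lay 311 bp downstream of a start of its gene, and the stronger Hoxc10 summit 234 bp upstream. The Hoxd10 summit lay 2338 bp downstream of a start of Hoxd10.

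Other paralogs differed from each other. In group 11 Hoxa11 and Hoxd11 had a peak and Hoxc11 did not. Their positions were unlike: the Hoxa11 summit lay 1726 bp past the 3′ end of Hoxa13, with the start of Hoxa13 nearest. The Hoxd11 summit lay inside Hoxd11, 524 bp before its 3′ end. It also lay inside Hoxd10 as annotated, 2219 bp past a start of that gene. In group 4 Hoxb4 and Hoxd4 had a peak and Hoxa4 and Hoxc4 did not. Only Hoxb6 of the 3 group 6 segments and only Hoxb9 of the 4 group 9 segments held a peak, and the 2 segments of group 12 (Hoxc12 and Hoxd12) held 0. Segment lengths overlapped: the 16 segments with a peak had a median length of 9571 bp (3104 to 79985 bp) and the 18 without had 12309.0 bp (4838 to 26292 bp). In the optimal set, a second list by the authors, 16 segments held a peak, 15 of them shared, with Hoxd12 gained and Hoxb5 lost.

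**Figure D2:**
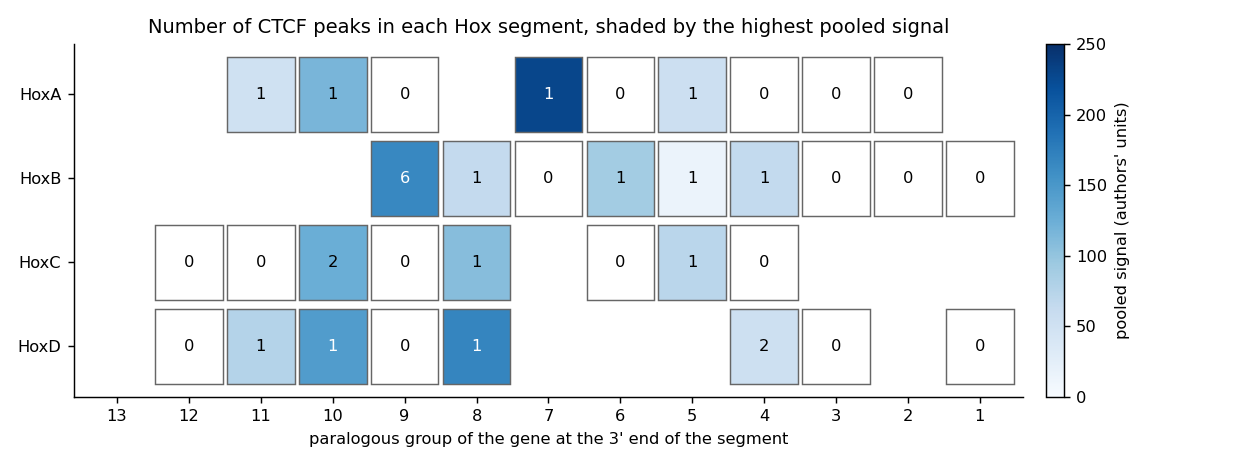
Each box is a Hox segment, placed by cluster (rows) and by the paralogous group of its 3′ gene (columns, 13 to 1 from left to right), with its number of conservative peaks and shaded by its highest pooled signal (authors' units). Columns 10, 8 and 5 hold a peak in each of their boxes and column 9 only in HoxB, with 6 peaks. Columns 12, 3, 2 and 1 hold 0.

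The sequences under these paralogous peaks are shown because they are what the clusters may share at the bound places. They come from the mm9 genome, the build of the authors' second set of peaks, in which 20 peaks had their midpoint inside a Hox cluster. A 19 bp motif was learnt from the 5000 strongest peaks outside the chromosomes of the 4 clusters, with the consensus tggccaccagagggcgcta. The best-scoring site of each peak is printed 5′ to 3′ on the strand of the motif, with the 19 motif bases in capitals and 5 bases on each side, and the coordinates are those of the capitals. The 4 sites just 3′ of group 9 were the following.
Hoxa7 segment, chr6:52171804-52171822, minus strand: agaaaATTCCAGGAGATGGCAGTGtggct
Hoxb8 segment, chr11:96140259-96140277, plus strand: cacagTGGCCGCTAGATGGCATCCttgct
Hoxc8 segment, chr15:102818021-102818039, plus strand: acaagTGAACGCGAGGTGGCGCTGttgct
Hoxd8 segment, chr2:74540449-74540467, plus strand: gcattTGGCCACTAGAGAGCGCTGttgct
The 3 group 10 sites and the 2 group 5 sites were read in the same way, since no mm9 peak lay in the segment of Hoxb5.
Hoxa10 segment, chr6:52190536-52190554, minus strand: cgcagCCGCCACGAGATGGCGCACtcccg
Hoxc10 segment, chr15:102797000-102797018, plus strand: cgaggCAGCTGCTAGGTGGCGCTGttact
Hoxd10 segment, chr2:74532282-74532300, minus strand: cttacTGATCTCTAGGCGGCGCTCgcggg
Hoxa5 segment, chr6:52154654-52154672, minus strand: cccagTCTCCAGCGGGTGGCGCTCgagtc
Hoxc5 segment, chr15:102844130-102844148, plus strand: ccgagTCGGCACCAGGTGTCGCTGtgagc
By the mm9 annotation (GENCODE vM1), the Hoxa7 and Hoxa10 sites lay in UTRs of those genes, the Hoxd10 site in the coding part of Hoxd10 and the Hoxb8, Hoxc10 and Hoxd8 sites between genes. The Hoxa5 site lay in an intron of long transcripts of Hoxa3 and 2700086A05Rik, and the Hoxc8 and Hoxc5 sites in an intron of Gm20398.

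The paralogous sites were partly alike. Over the 29 printed bases the sites of Hoxc8 and Hoxd8 shared 19, those of Hoxb8 and Hoxc8 shared 18, and those of Hoxa5 and Hoxc5 shared 18. The 12 pairs of sites at paralogous places shared a median of 16 bases (12 to 19), and the 127 other pairs of sites from different clusters shared 14 (6 to 21), so the ranges overlapped. The 12 pairs were taken by segment and include groups 4, 10 and 11. In groups 10 and 11 the peaks lay at unlike positions, so not all 12 pairs are of corresponding sites. All of these sites were picked as the best match to 1 motif, so some likeness follows from the choice itself.

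The motif itself was weak in the Hox peaks. Only 1 of the 20 peaks reached 19.4 bits, the score that 1% of windows flanking the peaks reached, against 36.7% of all 39349 pooled mm9 peaks. This is a strict score, because the flanking windows have a second rise near it: 1.58% of them scored from 19 to 20 bits against 0.789% from 17 to 18. The Hox site that passed lay between genes in the Hoxb9 segment and scored 25 bits.
Hoxb9 segment, chr11:96085317-96085335, minus strand: cacagAGGCCAGAAGAGGGCGCCAttttt
The other 19 best sites scored below the median of all peaks, 18.1 bits, and the Hox median was 14.7 bits (7.15 to 25). Sites of all 20 scored above the median of the flanking windows, 6.05 bits. At the score that 5% of flanking windows reached, 5 of 20 Hox peaks passed against 65.5% of all peaks. At the score that 0.1% reached, 1 passed against 11.2%. A search limited to 50 bp either side of the midpoint had its own, lower score of 12.4 bits, which 1% of flanking windows of that length reached. There 6 passed against 56.3%, and the site of 25 bits, 96 bp from its midpoint, fell outside the search. This count is therefore not on the same scale as the others. The Hox peaks had a median mm9 signal of 13.5 against 12 over all peaks, and whether score and signal go together was not tested.

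**Figure D3:**
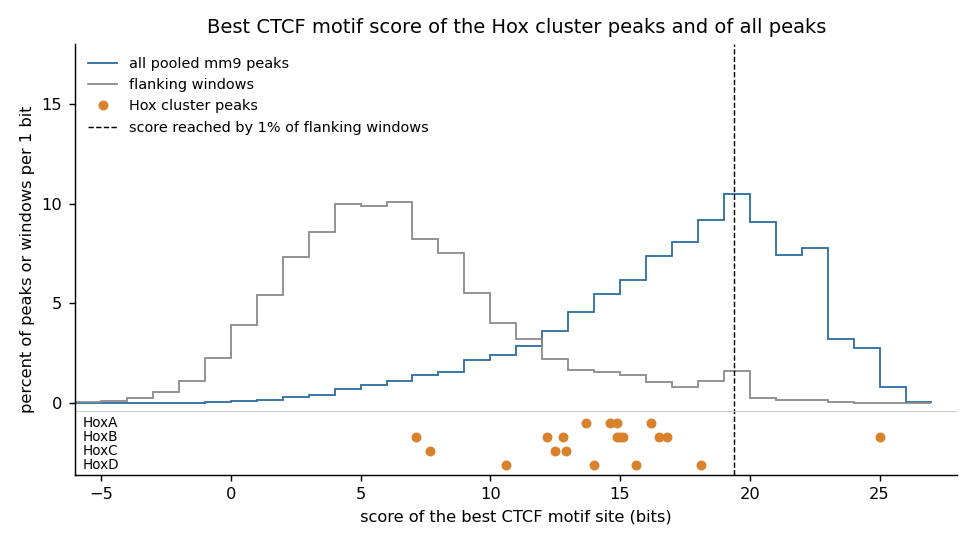
Score of the best motif site (horizontal axis, bits) for all pooled mm9 peaks (blue) and flanking windows (grey), as the percent of peaks or windows per 1 bit, with each of the 20 Hox cluster peaks as an orange point in the row of its cluster. A single Hox point, at 25 bits in HoxB, lies right of the dashed line at 19.4 bits, and the other 19 lie between 7.15 and 18.1 bits.

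The best sites nevertheless sat near the centre of their peaks. Their centres lay a median of 42.0 bp from the peak midpoint and 18 of 20 lay within 100 bp, compared with 84.1% of all peaks and 22.3% of flanking windows. These distances, the orientations and the identities above were chosen after the motif counts were seen. Orientation was read from the best sites whatever their score, with the G-rich strand as forward. Of the 20 best sites, 11 pointed along Hox transcription and 9 against it. In HoxA 3 of 4 sites, in HoxC 3 of 3 and in HoxD 3 of 4 pointed along Hox transcription. In HoxB 7 of 9 pointed against it. The 6 sites in the Hoxb9 segment all pointed against it, and the sites just 3′ of group 9 pointed along it in all 4 clusters.

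Of the members, 6 of 38 (15.8%) had a conservative summit within 1000 bp of a transcription start, beside 10.9% of 20924 coding genes. They were Hoxa5 (112 bp), Hoxb5 (198 bp), Hoxc10 (234 bp), Hoxa10 (311 bp), Hoxc5 (338 bp) and Hoxb8 (480 bp). Hoxa10 had the summit downstream of its start and the other 5 upstream. Over the 38 members the nearest summit was a median of 4449.5 bp away, from 112 bp at Hoxa5 to 46814 bp at Hoxd1, the most 3′ gene of HoxD. The 6 members over 20 kb away were Hoxa2, Hoxb1, Hoxb2, Hoxc12, Hoxc13 and Hoxd1, which lie at a 3′ end of a cluster or at the 5′ end of HoxC.

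Promoter sequences from RefSeq (GRCm38.p6, 250 bases before to 50 after a start) matched 22 members in 24 windows. The motif on either strand, at 18.1 bits for windows of this length, was in 0 of these 24 and in 1.10% of 32619 promoters. The only window that held a conservative summit was that of Hoxa5, and its best site scored 14.6 bits, with its centre 77 bp upstream of the start.
Hoxa5 promoter, GRCm38.p6 chr6:52204655-52204673, minus strand: cccagTCTCCAGCGGGTGGCGCTCgagtc
The letters are the same as those of the mm9 site in the Hoxa5 segment.

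In HoxA, on chromosome 6, the 4 peaks fell between Hoxa13 and Hoxa5. Positions are mm10 summits, and signals are the authors' peak signal, whose scale is not stated, for the pooled libraries and for replicates 1 and 2. The strongest, at 52221834 between Hoxa9 and Hoxa7, had a pooled signal of 229 and replicate signals of 123 and 109. It was stronger than 98.0% of all conservative peaks and the strongest inside any of the clusters. Hoxa7 acts in the trunk, and by RefSeq this summit lay 3261 bp upstream of its start. By GENCODE vM1 the mm9 site of this peak lay in a UTR of Hoxa7, so its place relative to the gene depends on the annotation.

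The second HoxA peak lay inside Hoxa10 at 52240543, with a pooled signal of 117 and replicate signals of 65.7 and 51.7. The other 2 were weaker. At 52257127, between Hoxa13 and Hoxa11, which shape the limb, the signals were 51.6 pooled and 25.4 and 26.7 in the replicates. At 52204699, upstream of Hoxa5 and inside Hoxa3 as annotated, they were 55.5, 23.4 and 31.6. From this summit to the next, 97.1 kb away in the 3′ flank, no peak was called, and Hoxa5, Hoxa4 and Hoxa2 lay whole in that stretch. Of the stretches between neighbouring conservative summits in the genome, 14.3% were as long.

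HoxB, on chromosome 11, held 10 peaks, 6 of them in the long spacer between Hoxb13, the most posterior gene of the cluster, and Hoxb9. That segment of 79985 bp was the longest of the 34 and the only one with more than 2 peaks. From 5′ to 3′ the pooled signals there were 48.5 at 96198750, 166 at 96224039 and 98.1 at 96235103. They continued with 138 at 96240440, 66.6 at 96256197 and 147 at 96261769, the last 2 inside Gm53, a gene annotated in the spacer. Replicate signals at the strongest of them, at 96224039, were 87.3 and 79.4.

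The other 4 HoxB peaks lay 3′ of Hoxb9, and none reached the 125 above which the strongest 25% of conservative peaks lie. The one at 96278921, upstream of Hoxb8, had 64.4 pooled, 17.4 in replicate 1 and 44.1 in replicate 2, the widest gap between replicates among the cluster peaks. The broader mm9 peak at this place had 11.3 in replicate 1 and 13.1 in replicate 2, so the gap was seen in the mm10 lists only. The one at 96294715, inside Hoxb6, had 89.9 pooled and 43.5 and 47.6 in the replicates. The one at 96311687 in the Hoxb4 segment, inside the long Hoxb3 annotation, had 64.9, 33.2 and 30.3. Hoxb6 and Hoxb4 are trunk and neck members of the cluster, and Hoxb4 is also known for its role in blood stem cells.

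The peak at 96303314, upstream of Hoxb5, was the weakest inside the clusters. Its pooled signal of 14.9 exceeded only 1.89% of conservative peaks, replicate 1 gave 11.2, and replicate 2 had no summit within 100 bp. It was not in the optimal set, not in the mm9 list and not among the strongest peaks of either replicate alone, so the group 5 pattern rests on this entry for HoxB. Without it, 2 of 3 group 5 segments and 5 of 38 members near a start remained. From the Hoxb4 segment peak onward, no peak was called for 100.4 kb, a stretch with Hoxb4, Hoxb2 and Hoxb1 whole inside it. Of the stretches between neighbouring summits in the genome, 13.8% were as long.

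HoxC, on chromosome 15, held 4 peaks. At 102966562, upstream of Hoxc10, a gene of the lumbar spinal cord, the signals were 125 pooled and 62.5 and 60.5 in the replicates. At 102970960, inside Hoxc10, they were 26.4, 9.38 and 15.8, the second weakest of the clusters. At 102987598, between Hoxc9 and Hoxc8, they were 108, 49 and 56.4, and at 103013670, upstream of Hoxc5, 71.4, 35.8 and 34.3. The first and the third lay above the median of all conservative peaks and the others below it.

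HoxC differed from the other clusters at its 5′ end. No peak lay in the 159 kb before the summit at 102966562, a stretch that holds Hoxc13, Hoxc12 and Hoxc11 whole, and 7.85% of the 43324 stretches between neighbouring conservative summits in the genome were as long. In HoxA, HoxB and HoxD the longest stretch without a peak began inside the cluster and ran through its 3′ end. That of HoxC toward 3′ was 79.0 kb, and 17.9% of stretches in the genome were as long.

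HoxD, on chromosome 2, held 5 peaks, packed between Hoxd11 and Hoxd4. Hoxd11 and Hoxd10, which act in limb and lower trunk, had 76.4 at 74686492 (replicates 41.7 and 36.5) and 145 at 74694229 (68.9 and 73.0). The summit at 74686492 lies inside both genes as annotated and is placed in the Hoxd11 segment by the 3′ ends. The strongest lay at 74702375 between Hoxd9 and Hoxd8, with 168 pooled and 95.4 and 71.6 in the replicates. Upstream of Hoxd4 a pair of summits only 216 bp apart, at 74715950 and 74716166, had 53.2 and 45.3. Both lie inside the long Hoxd3 annotation, 3957 and 4173 bp past its start, and are placed in the Hoxd4 segment by the 3′ ends. The mm9 list holds 1 broad peak there. After it no peak was called for 248 kb, with Hoxd4 and Hoxd1 whole inside, and 4.25% of stretches in the genome were as long.

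The strength of the cluster peaks was ordinary. Their median pooled signal was 76.4 (14.9 to 229) against 77.2 for all conservative peaks, and 4 equal classes of the genome-wide signal, from low to high, held 2, 10, 4 and 7 of the 23. For comparison between replicates each signal was divided by the median that its own replicate had at all matched conservative peaks. The peak 3′ of Hoxa9 had a relative signal of 2.89 ± 0.0955 (SD, n = 2), that between Hoxd9 and Hoxd8 2.07 ± 0.313, and that at 96224039 in the Hoxb9 segment 2.07 ± 0.0328. At the low end, the peak inside Hoxc10 had 0.317 ± 0.129. The widest spread was at the peak upstream of Hoxb8, 0.778 ± 0.509, which overlaps the values of many other peaks, so its place in the order is uncertain.

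Of 22 cluster peaks matched in both replicates, 3 differed by more than 1.5-fold, while 17.4% of 41382 matched peaks of the genome did. All 3 were higher in replicate 2. They lay upstream of Hoxb8 (0.418 in replicate 1 and 1.14 in replicate 2), inside Hoxc10 (0.225 and 0.408) and 2140 bp past Hoxb13 (0.444 and 0.755). The peaks just 3′ of the group 9 genes ranged from 64.4 to 229 in pooled signal, so paralogous places were not bound at the same strength. Hoxa7, Hoxd8 and Hoxc8 stood above 1 in both replicates, and Hoxb8 in replicate 2 only.

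**Figure D4:**
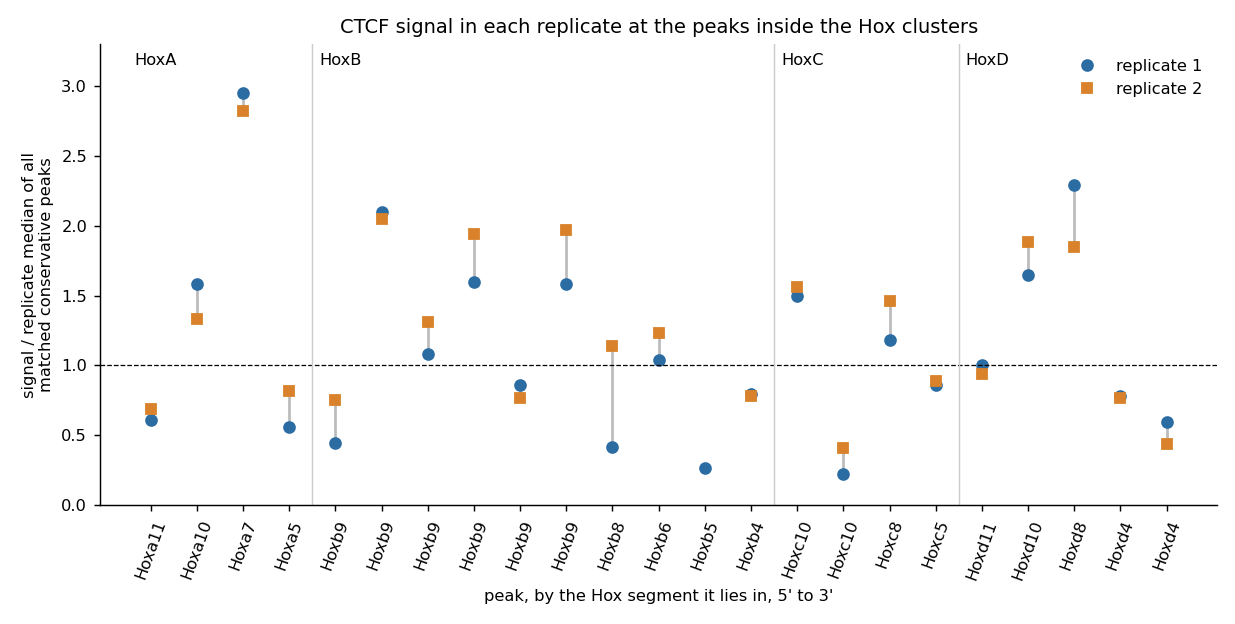
Relative signal of each peak inside a cluster in replicate 1 (blue circles) and replicate 2 (orange squares), which is the signal over that replicate's median of all matched conservative peaks, with the dashed line at 1. Peaks run 5′ to 3′ within each cluster, the Hoxa7 segment is highest at 2.95 and 2.82, and the Hoxb5 segment has no matched value in replicate 2.

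CTCF peaks were denser inside the clusters than beside them in sum, but not in each cluster. The clusters held 4.67 peaks per 100 kb over 492 kb, the 5′ flanks 3.62 (29 peaks) and the 3′ flanks 3.50 (28 peaks). HoxD had 5.16 per 100 kb inside, 1.5 in its 5′ flank and 0.50 in its 3′ flank. HoxA had 3.79 inside, 1.5 in its 5′ flank and 3.0 in its 3′ flank. HoxB had 5.75 inside, less than the 7.5 of its 5′ flank, and HoxC had 3.46, less than the 4.0 and 7.0 of its flanks. Of 53 tiles of 10 kb across the clusters, 22 (41.5%) held a summit inside the cluster, against 13.5% of the tiles of the genome. The share for tiles of the flanks is not given here, so this contrast does not set the clusters apart from their surroundings.

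**Figure D5:**
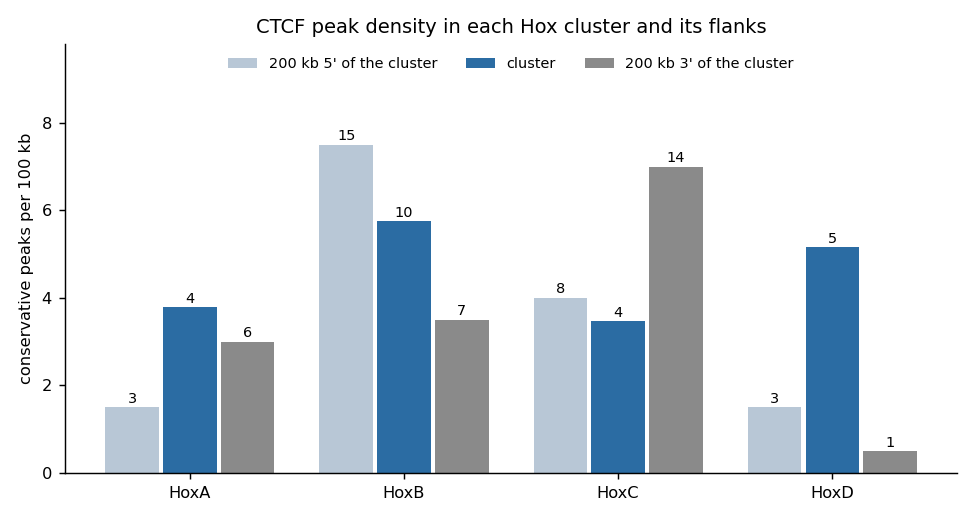
Conservative CTCF peaks per 100 kb (bars from 0) in each cluster and in the 200 kb on its 5′ and 3′ sides, with the number of peaks above each bar. HoxD has 5 peaks inside against 3 and 1 beside it, while HoxB has 15 in its 5′ flank and HoxC 14 in its 3′ flank.

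The nearest flank peak marked how close binding came to each end. On the 5′ side it lay 4465 bp from HoxD at 74663760, between Hoxd13 and Evx2 (pooled signal 79.0), and 9827 bp from HoxA at 52270707 (116). Each was also the strongest of its 3 flank peaks by pooled signal, for HoxD by a narrow margin. The HoxD flank peak at 74635594 had 78.8, and a relative signal of 0.984 ± 0.000152 (SD, n = 2). That at 74663760 had 0.968 ± 0.409, so the order of these peaks is uncertain. On the 5′ side of HoxB it was 33702 bp away inside Ttll6 (61.2), a tubulin polyglutamylase gene, and on that of HoxC 113535 bp away inside Gm36560 (57.6). The strongest peak of the HoxB 5′ flank, 165, also lay inside Ttll6, and that of the HoxC 5′ flank, 203, lay 20644 bp from Calcoco1.

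On the 3′ side the nearest peak was further away than on the 5′ side in HoxA, HoxB and HoxD and nearer in HoxC. It lay 43853 bp past the end of HoxB (113), 47748 bp past HoxA inside the non-coding gene Halr1 (73.9), 55816 bp past HoxC (176) and 199425 bp past HoxD (133). The peak past HoxD was the only one in that flank, and its nearest coding gene, 87819 bp off, was Mtx2, a mitochondrial import gene. The strongest 3′ flank peaks were 163 near Skap2 for HoxA, 169 inside Skap1 for HoxB and 189 near Smug1, a DNA repair gene, for HoxC.

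Genes that work with Hox genes were read in the same way, from a list of 32. A summit lay within 1000 bp of a start for 5 of the 32, beside 10.9% of all coding genes. Of 9 TALE cofactors, homeodomain partners of Hox proteins, these were Pknox2 (159 bp, pooled signal 29.6) and Meis3 (324 bp, 91.3). Of 8 Polycomb and trithorax genes, which keep Hox genes silent or active, they were Cbx2 (277 bp, 57.8) and Pcgf2 (632 bp, 36.0). Evx2, 1 of the 2 even-skipped genes next to a cluster, had a peak 517 bp from its start (26.5; replicates 10.7 and 17.2), and its relative Evx1 had none nearer than 7440 bp. None of the 6 ParaHox genes, relatives of the Hox genes outside the clusters, and none of the 7 retinoic acid genes, which act upstream of Hox expression, had one. At a share of 10.9%, lists this short say little when their count is 0.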

How the data were processed

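Peak lists of CTCF ChIP-seq were used as deposited. Per the labels, the assemblies are mm9 and mm10 and a control experiment is named. The name of the peak caller, of the aligner and the IDR version were not given in the sources used here. In both builds the authors' signal per peak (mm10 narrow peaks, mm9 broad peaks) has no stated scale, and the authors' conservative set adds an integer score from 537 to 1000. The lists used as IDR input hold 300000 entries each. Summits were matched within 100 bp, and the nearest was taken. Gene positions came from RefSeq (GRCm38.p6) for mm10 and GENCODE vM1 for mm9. No coordinates were converted. Segments were bounded by 3′ ends and not by starts as first designed, since the annotated starts of Hoxa3, Hoxb3 and Hoxd3 lie beyond neighbouring genes. A start of Hoxd10 also lies inside Hoxd11 as annotated. The motif (19 bp, expectation maximisation from the most enriched 10-mer) and the summit matching were tested on simulated data. Peaks inside the clusters, the strongest and nearest peak of each flank, and related genes with a summit near a start were named, with the 5 strongest entries outside the conservative set. Other peak sets, windows, thresholds and single replicates were tried as alternatives. Members, lists and rules were chosen with earlier results of these data known. Python 3.11.15, numpy 2.4.6, pandas 2.3.3 and matplotlib 3.10.9 were used.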

Additional observations from a re-analysis of the deposited data

How the results depend on the processing

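The number of peaks inside the clusters was 23, with 24 in the optimal set, 21 at the highest score, 20 in the mm9 list, and 22 to 27 with 1 replicate alone. Segments with a peak numbered 15 to 18 with 1 replicate alone, and Hoxb5 was lost in both. With replicate 1 alone Hoxb2, Hoxb3 and Hoxd12 were gained, so the count of 0 in groups 1 to 3 did not hold there. Members near a start numbered 5 to 7 over the windows, sets and replicates tried, and the share of all coding genes moved too. Within 500 bp there were 6 members beside 7.22% of coding genes, and within 2000 bp 7 beside 16.9%. The optimal set and each replicate alone gave 5 members, beside 10.8% to 11.1%. Flank peaks numbered 21 at 100 kb and 55 to 60 in the other settings. The median relative signal of 0.989 was 1.00 to 1.18 with 1 replicate alone, and 1 peak, upstream of Hoxb8, remained more than 2-fold apart in the mm10 lists. The motif count of 1 was 5 at the 5% score and 1 in the list of either replicate. It was 6 with the whole site within 50 bp of the midpoint, at the lower score of 12.4 bits. The cause of these changes was not tested. No paired analysis was possible because the series has a single group. Depth is unknown, n is 2, and neighbouring genes share peaks.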

Other observations

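The pooled list before IDR held 129 entries inside the 4 clusters, of which 106 were outside the conservative set. The whole pooled list held 300000 entries, beside 43344 conservative peaks on the autosomes and X, so most entries of the genome were also outside. Of the 106 in the clusters, 6 were matched in both replicates, and the same share over the genome is not given here. The strongest, at 74673201 on chromosome 2 between Hoxd13 and Hoxd12, had a pooled signal of 23.2 and 16.1 in replicate 1 and was in the optimal set, above the 14.9 of the weakest conservative peak. The next lay at 96297338 inside Hoxb6 (17.4; replicate 1, 13.6) and at 96338412 inside Hoxb3 (15.5; replicate 1, 14.9). No replicate 2 summit matched these 3. At 103028746 inside Hoxc4 both replicates gave a low value (5.74 and 5.82, pooled 15.2), and so did 74685707 in the Hoxd11 segment (7.63 and 6.22, pooled 15.1).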
